A study of Mus musculus with 16 samples.

Results

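The genes described here are Eva1c, its paralogues Eva1a and Eva1b, the Slit ligand genes Slit1, Slit2 and Slit3, and the Robo receptor genes Robo1, Robo2 and Robo3. These 9 genes were chosen by symbol from the 54532 genes of the count table, and all 9 were kept by the filter on low counts, which left 17555 genes over the 16 mice. Eva1c was singled out by the study for its expression and splicing in these same mice, and its paralogues and pathway partners were added because of it. Its values below are therefore a description with no test, and members that passed a test were counted over the other 8 genes only. Hippocampal RNA was sequenced from 4 groups of 4 mice: wild-type mice on plain water (WT), wild-type mice on nicotinamide riboside (WT + NR), hTau.P301S mice on plain water and hTau.P301S mice on the compound (hTau.P301S + NR). NR, a precursor of NAD+, was given at 6 mM in the drinking water for 3 months, from 12 to 15 months of age per the labels. The hTau.P301S mice carry human Tau with the P301S change, driven by the Thy1 promoter, which acts mainly in neurons. Both genotypes went through behavioural testing before the tissue was taken.

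EVA1C is a transmembrane protein first known from the worm as EVA-1, a receptor that binds Slit and acts beside the Robo receptor in axon guidance. Slits are secreted proteins that repel growing axons by binding Robo receptors on the growth cone, and in the adult brain both continue to be made by neurons. EVA1A is an intracellular membrane protein tied to autophagy and cell death, and much less is known of EVA1B. Robo1 and Robo2 are the main Slit receptors of forebrain neurons, whereas mammalian Robo3 binds Slits poorly and is best known for its part in midline crossing and in the habenula.

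The 3 EVA1 genes lie on different chromosomes (all positions GRCm38, GENCODE annotation). Eva1c (ENSMUSG00000039903) spans chr16:90826719-90905109 on the plus strand, Eva1a (ENSMUSG00000035104) spans chr6:82041043-82093099 on the plus strand, and Eva1b (ENSMUSG00000050212) fills only 2132 bases at chr4:126147744-126149875, also on the plus strand. Robo1 at chr16:72308306-73046095 and Robo2 at chr16:73891839-74411825 share chromosome 16 with Eva1c. Slit2 and Slit3 host the microRNA genes Mir218-1 and Mir218-2, which had at most 4 and 2 counts in any mouse. Eva1c and Eva1a each overlap an antisense gene, Gm36363 and Gm15864, and both of these had 0 counts in all 16 mice. Whether counting used strand is not given in the sources used here, so reads of the antisense transcripts cannot be told apart from those of Eva1c and Eva1a.

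RefSeq start regions (GRCm38.p6, 250 bases before to 50 after the start) were found for 8 of the 9 genes, with no entry for Slit1. Those of the 3 EVA1 genes are shown so that the start regions of Eva1c and its paralogues can be compared. Capitals mark every match, on either strand, to the GC box GGGCGG, the CCAAT box CCAAT, the E-box CACGTG or the TATA box TATAAA. The regions are chr16:90830609-90830908 (plus strand) for Eva1c, chr6:82041378-82041677 (plus strand) for Eva1a and chr4:126147753-126148052 (plus strand) for Eva1b.
Eva1c: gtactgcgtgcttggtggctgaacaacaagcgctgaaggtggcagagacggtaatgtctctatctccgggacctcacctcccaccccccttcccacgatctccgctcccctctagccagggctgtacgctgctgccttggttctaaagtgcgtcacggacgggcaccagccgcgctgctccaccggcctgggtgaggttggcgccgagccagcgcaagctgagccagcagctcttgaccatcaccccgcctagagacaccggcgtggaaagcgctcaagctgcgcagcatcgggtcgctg
Eva1a: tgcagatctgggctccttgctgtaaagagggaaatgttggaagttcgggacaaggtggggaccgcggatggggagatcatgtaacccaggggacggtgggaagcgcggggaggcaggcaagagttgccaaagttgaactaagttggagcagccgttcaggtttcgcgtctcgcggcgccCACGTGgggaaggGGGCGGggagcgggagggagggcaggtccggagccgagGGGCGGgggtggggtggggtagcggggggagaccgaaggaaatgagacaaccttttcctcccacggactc
Eva1b: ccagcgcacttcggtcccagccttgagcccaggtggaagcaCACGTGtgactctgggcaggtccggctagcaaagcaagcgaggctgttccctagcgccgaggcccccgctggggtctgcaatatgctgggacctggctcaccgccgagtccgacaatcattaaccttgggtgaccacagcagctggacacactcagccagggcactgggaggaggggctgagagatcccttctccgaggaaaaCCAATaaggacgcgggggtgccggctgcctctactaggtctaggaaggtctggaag
The Eva1c window held 23 CpG dinucleotides and none of the 4 motifs. The Eva1a window held 21 CpG dinucleotides, 2 GC boxes and 1 E-box, and the Eva1b window 15 CpG dinucleotides, 1 CCAAT box and 1 E-box. Over the 32851 start regions of that length in the table, the median was 7 CpG dinucleotides, and 35.7% held a GC box, 37.4% a CCAAT box, 7.15% an E-box and 13.6% a TATA box. These matches are a description of letters. For all 3 EVA1 genes, the annotated gene begins upstream of the window shown, so each window lies inside the annotated gene.

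Total counts ranged from 16490261 to 21915362 per mouse. One library stood apart: hTau.P301S replicate 1 had 14.4% of counts in mitochondrial genes, against at most 7.07% in the other 15 mice, and the fewest genes detected (19467). In 3 further mice (WT replicate 2, WT + NR replicate 3 and hTau.P301S + NR replicate 4), 6 striatal markers summed to between 267 and 1466 CPM (counts per 1000000 of the TMM-scaled library), against 44.8 to 157 in the other 13, and the hippocampal gene Neurod6 was at 21.7 to 35.0 CPM against 116 to 237. All 6 hippocampal markers had counts in every mouse. For several genes, values without hTau.P301S replicate 1 or without the 3 mice with high striatal markers are given too. Values printed alone can also move when these mice are left out. In such bulk tissue, fewer cells of a type and less RNA per cell cannot be told apart.

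The 9 genes covered a wide range of levels. Per kilobase of gene length, Slit1 had the highest mean over the 16 mice, 34.5 CPM per kb (range 15.7 to 52.4), and no mouse's value overlapped those of Slit3, the next gene, at 8.35 CPM per kb (2.47 to 12.3). Then followed Eva1a (5.15 CPM per kb), Robo2 (4.86), Robo1 (3.49), Slit2 (1.60), Eva1b (1.45), Robo3 (0.966) and Eva1c (0.771). From Slit3 downwards, the ranges of every pair of neighbours in this order overlapped, so their order is not set beyond the spread over mice. Eva1c had the lowest mean per kb of the 9. It had 25 to 82 counts per mouse, which gives a counting error of about 11 to 20% of each value. In raw counts, Eva1b and Robo3 fell lower, to 16 and 18 in their lowest mouse.

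**Figure D1:**
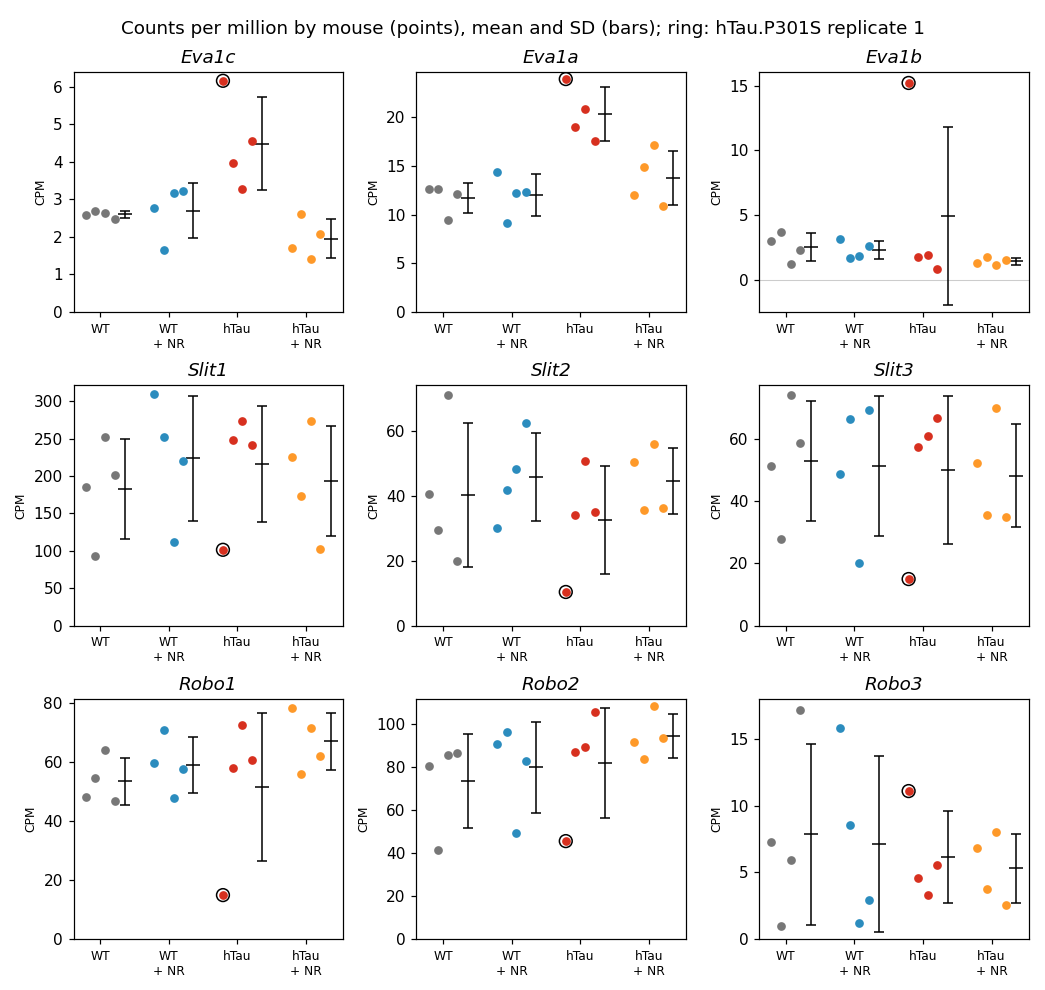
CPM (y axis) of the 9 genes in each of the 16 mice (points, hTau standing for hTau.P301S), with the mean and SD of 4 mice per group (bars). The ring marks hTau.P301S replicate 1, the highest of its group for Eva1c, Eva1a, Eva1b and Robo3 and the lowest for the other 5 genes; all 4 hTau.P301S mice lie above all 4 WT mice for Eva1c and Eva1a.

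Eva1c itself was at 2.58, 2.69, 2.64 and 2.49 CPM in the WT mice and at 6.15, 3.97, 3.27 and 4.54 CPM in the hTau.P301S mice. All hTau.P301S values exceeded all WT values, and the WT values were the tightest of the 4 groups. Their SD was 3.3% of the mean, below the counting error of 14.1 to 14.7% at their 46 to 50 counts. In hTau.P301S + NR, Eva1c was at 1.70, 2.61, 1.40 and 2.09 CPM, with every mouse below every untreated hTau.P301S mouse and only replicate 2 inside the WT range. In WT + NR, the values were 2.77, 1.64, 3.16 and 3.22 CPM, lying on both sides of the WT values. The group means were thus 2.60 ± 0.0864 CPM for WT, 2.70 ± 0.732 for WT + NR, 4.49 ± 1.23 for hTau.P301S and 1.95 ± 0.522 for hTau.P301S + NR (SD, n = 4 each).

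On the log2 scale Eva1c was 0.79 higher in hTau.P301S than in WT (SE 0.29) and differed by -1.20 (SE 0.31) between treated and untreated hTau.P301S mice. Without hTau.P301S replicate 1 these differences were 0.59 and -0.99. In WT mice the difference with NR was 0.06 (SE 0.27), and among treated mice hTau.P301S minus WT was -0.47 (SE 0.30). The change with NR in hTau.P301S minus that in WT was -1.25 (SE 0.40). The first 2 of these differences both use the hTau.P301S mice, so a high or low value in that group enters both with opposite sign. Because Eva1c was picked on these mice, no p is given for it.

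Eva1a, which the choice of Eva1c did not fix, was at 12.6, 12.6, 9.44 and 12.1 CPM in WT and at 23.9, 19.0, 20.9 and 17.6 CPM in hTau.P301S mice. The groups did not overlap. Its log2 fold change was 0.80 (SE 0.20), with an unadjusted p of 0.00289 and an adjusted p of 0.596 in edgeR's quasi-likelihood test over 16375 genes, so it did not pass the call of adjusted p under 0.05 with an absolute log2 fold change above 0.5. With DESeq2, the tool of the study, fitted to the same 8 mice, it did pass (adjusted p = 0.026), and also in DESeq2's fit over all 4 groups, both with every mouse (0.00599) and without hTau.P301S replicate 1 (0.0165). Over all alternatives run, the adjusted p ranged from 0.00599 to 0.869 and the log2 fold change from 0.69 to 0.85. Of 4 astrocyte markers, Aldoc had a log2 fold change of 0.67 (SE 0.30) in the same comparison and the other 3 (Slc1a3, Gja1 and Aqp4) lay between -0.34 and -0.09. Without hTau.P301S replicate 1, Aldoc was at 0.33, Slc1a3 at 0.20, Gja1 at 0.025 and Aqp4 at -0.14. None of the 4 was at an unadjusted p under 0.05. Their sum ranged from 1946 to 2383 CPM in hTau.P301S, the highest being replicate 1, and from 1691 to 2007 CPM in WT. Their part in the Eva1a difference was not tested.

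With NR, Eva1a in hTau.P301S mice was at 12.1, 14.9, 17.1 and 10.9 CPM, every one below the untreated hTau.P301S mice, the nearest pair being 17.1 and 17.6 CPM. The log2 fold change was -0.57 (SE 0.20), with unadjusted p = 0.0213 and adjusted p = 0.367 in edgeR, and it was -0.47 without hTau.P301S replicate 1. In WT + NR mice Eva1a was at 14.4, 9.18, 12.2 and 12.3 CPM, overlapping WT throughout, with a log2 difference of 0.05 (95% interval -0.36 to 0.46). The NR by genotype interaction of Eva1a was -0.60 (SE 0.27), with unadjusted p = 0.0385 and adjusted p = 0.558 in edgeR, and unadjusted p = 0.0618 without hTau.P301S replicate 1. Eva1a on NR did not separate the genotypes, the log2 difference being 0.19 (95% interval -0.24 to 0.63).

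Eva1b rested on 1 library. It was at 3.01, 3.70, 1.21 and 2.33 CPM in WT, and at 15.2, 1.75, 1.91 and 0.887 CPM in hTau.P301S, where replicate 1 was 10.1 times the mean of the other 3. The log2 fold change of hTau.P301S against WT was 0.95 (SE 0.87) with that mouse and -0.76 without it, and that of NR in hTau.P301S mice was -1.78 (SE 0.86) with it and -0.07 without it. Neither passed the test. In the treated mice, Eva1b was at 1.30, 1.77, 1.12 and 1.55 CPM in hTau.P301S + NR and at 3.18, 1.69, 1.88 and 2.65 CPM in WT + NR. This log2 difference of -0.71 (SE 0.29) had an unadjusted p of 0.0376 and an adjusted p of 0.781 in edgeR, and the groups overlapped by 1 mouse on each side.

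Slit1, the most abundant of the 9 genes, was at 185, 92.7, 253 and 202 CPM in WT and at 101, 249, 273 and 242 CPM in hTau.P301S mice. The lowest value of each group was that of WT replicate 2, a mouse with high striatal markers, and of hTau.P301S replicate 1. In WT + NR and hTau.P301S + NR the values were 311, 252, 112 and 221 CPM and 226, 173, 274 and 102 CPM, and the lowest were again the mice with high striatal markers. The log2 fold change was 0.24 for hTau.P301S against WT (95% interval -0.61 to 1.09) and -0.16 for NR in hTau.P301S mice (95% interval -1.01 to 0.69). Without those striatal mice they were 0.00 and 0.05, and without hTau.P301S replicate 1 they were 0.47 and -0.39.

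Slit3 showed the same low mice, with 51.3, 28.0, 74.3 and 58.6 CPM in WT and 15.0, 57.5, 61.1 and 66.7 CPM in hTau.P301S. It was at 48.8, 66.4, 20.2 and 69.2 CPM in WT + NR and at 52.2, 35.6, 70.1 and 34.8 CPM in hTau.P301S + NR. All 4 groups overlapped, and the log2 fold change lay between -0.09 and -0.05 in the 4 comparisons, with standard errors of 0.37 to 0.45. For hTau.P301S against WT it was 0.21 without hTau.P301S replicate 1 and -0.31 without the mice with high striatal markers. Slit2 was at 40.5, 29.6, 71.0 and 19.96 CPM in WT, 30.04, 41.8, 48.3 and 62.5 on NR in wild-type mice, 10.3, 34.0, 50.6 and 35.1 in untreated hTau.P301S mice and 50.3, 35.6, 56.0 and 36.3 in treated ones. The lowest of all 16 mice was hTau.P301S replicate 1, and the log2 difference with NR in hTau.P301S mice was 0.45 (95% interval -0.48 to 1.38) with it and 0.17 without it.

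Robo1 was at 48.1, 54.6, 63.9 and 46.7 CPM in WT and at 14.9, 58.0, 72.4 and 60.5 CPM in hTau.P301S. The value of hTau.P301S replicate 1 was 0.234 times the mean of the other 3. The log2 fold change was -0.06 (SE 0.41) with this mouse and 0.25 without it. In WT + NR and hTau.P301S + NR, Robo1 was at 59.7, 70.7, 47.7 and 57.6 CPM and at 78.1, 56.0, 71.3 and 62.0 CPM, groups that overlapped.

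Robo2 was at 80.8, 41.3, 85.7 and 86.8 CPM in WT, 90.9, 96.5, 49.5 and 82.9 on NR in wild-type mice, 45.6, 87.4, 89.4 and 106 in untreated hTau.P301S mice and 91.6, 84.0, 109 and 93.7 in treated ones. The low value of each of the first 3 groups was a mouse with high striatal markers or hTau.P301S replicate 1. Its log2 fold change in hTau.P301S was 0.16 (SE 0.31, unadjusted p = 0.629 in edgeR), and 0.35 without hTau.P301S replicate 1. When the trend with gene length was removed from each mouse, a setting added once the data had been seen, it became 0.55 (unadjusted p = 0.00728), and that of NR in hTau.P301S mice turned from 0.20 to -0.33 (unadjusted p = 0.0372). Neither value passed after adjustment.

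Apart from Eva1b in hTau.P301S, Robo3 varied most within a group relative to its mean. It ranged from 1.01 to 17.2 CPM in WT and from 1.19 to 15.8 CPM in WT + NR, against 3.32 to 11.1 CPM in hTau.P301S and 2.58 to 8.07 CPM in hTau.P301S + NR. WT replicate 2 and WT + NR replicate 3, both with high striatal markers, were the lowest. The log2 fold change of hTau.P301S against WT was -0.35 with a 95% interval from -1.97 to 1.27, wide enough to hold a large change in either direction. It was -0.81 without hTau.P301S replicate 1 and -0.75 without the mice with high striatal markers. The sum of 6 thalamic and habenular markers ranged from 40.7 to 274 CPM over the mice, and its relation to Robo3 was not tested.

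**Figure D2:**
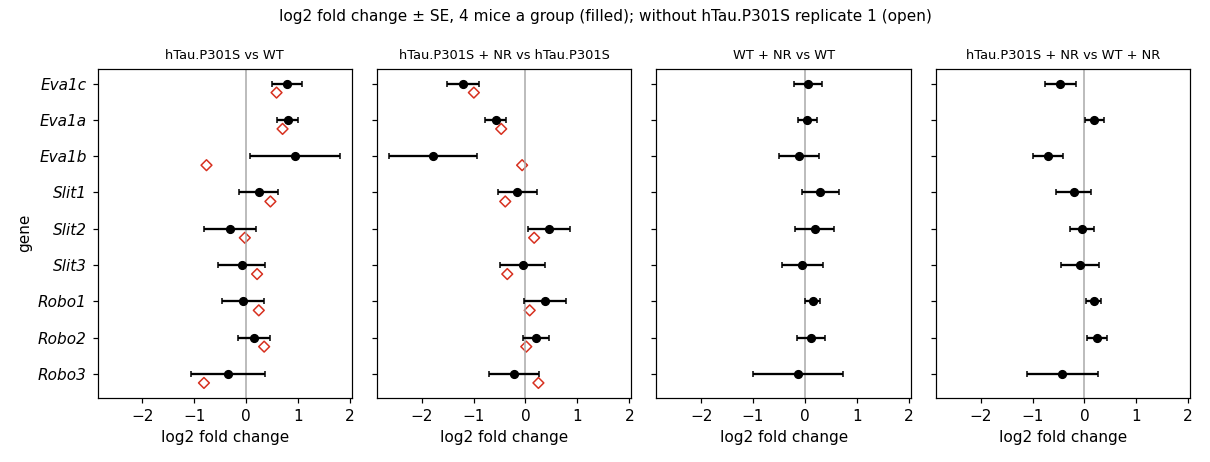
Log2 fold change (x axis) of the 9 genes (y axis) in the 4 comparisons, as edgeR's estimate ± SE with 4 mice per group (filled) and, where that mouse enters, without hTau.P301S replicate 1 (open diamonds). Eva1c and Eva1a keep their side of 0 in both hTau.P301S comparisons, whereas Eva1b moves from 0.95 to -0.76 against WT and from -1.78 to -0.07 with NR.

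Counted over the 8 genes other than Eva1c, none was called in hTau.P301S against WT by edgeR, where 0.00611% of all genes tested were called, and DESeq2 called 1, Eva1a, where it called 0.741% of all genes on the same 8 mice and 2.93% over 4 groups. On the 8 mice DESeq2 gave no p for Eva1b, here and for NR in hTau.P301S mice. At an unadjusted p under 0.05 stood 1 of 8, Eva1a, against 7.14% of all genes, and without overlap between groups also 1 of 8, against 6.24%. The median log2 fold change of the 8 genes was 0.05, beside 0.02 for all genes. For NR in hTau.P301S mice, edgeR and DESeq2 called none of the 8 (0.0061% of all genes by edgeR and 1.82% by DESeq2). Eva1a was the only one of the 8 at an unadjusted p under 0.05, where 12.9% of all genes stood, and the only one without overlap, against 11.9%. The median was -0.11, beside -0.03 for all genes. One gene of 8 is near the background share in both comparisons, and these numbers read as no more than that.

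For NR in WT mice, edgeR and DESeq2 again called none of the 8 genes, and 0% of all genes were called by either tool. None was at an unadjusted p under 0.05 (0.79% of all genes) and none was without overlap (0.754%). For hTau.P301S + NR against WT + NR, neither tool called any of the 8, against 0.054% of all genes called by edgeR and 0.349% by DESeq2. Only Eva1b was at an unadjusted p under 0.05 (6.09% of all genes), and none was without overlap (3.73%). The interaction gave no call for the 8 genes with either tool, with 0% of all genes called by edgeR and 0.107% by DESeq2, and only Eva1a at an unadjusted p under 0.05, against 7.92% of all genes.

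The direction in which hTau.P301S replicate 1 departed from its group followed gene length across all genes. Relative to the mean of the other 3 hTau.P301S mice, the median log2 ratio was 1.21 for the 3524 genes under 2 kb, 0.25 for genes of 2 to 4 kb, -0.47 for genes of 4 to 8 kb and -0.96 for genes over 8 kb. The 3 EVA1 genes, all under 4 kb, were higher in this mouse, Eva1c by 0.64, Eva1a by 0.32 and Eva1b by 3.25. The 3 Slit genes, Robo1 and Robo2, all longer than 5 kb, were lower in it, by log2 ratios from -2.09 for Robo1 to -1.04 for Robo2. Robo3, at 6848 bases, was higher in it by 1.29, against the trend. With the length trend removed from each mouse, the log2 difference of hTau.P301S against WT was 0.84 for Eva1c and 0.76 for Eva1a, and that of NR in hTau.P301S was -1.23 and -0.47.

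**Figure D3:**
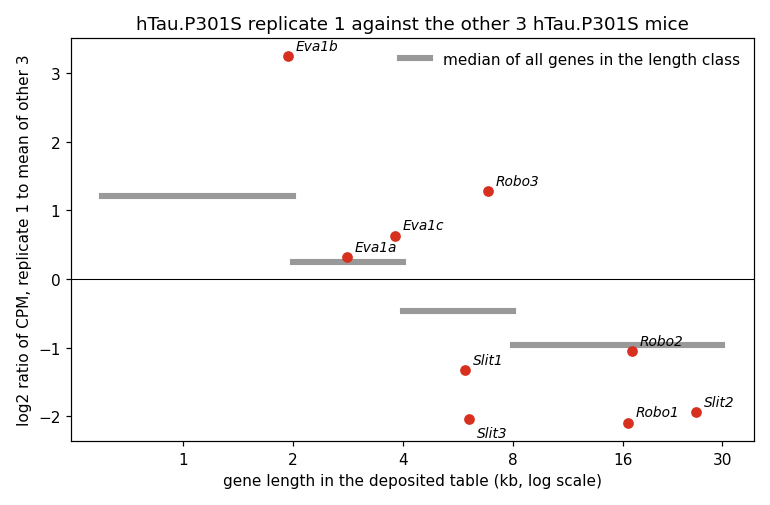
Log2 ratio of CPM in hTau.P301S replicate 1 to the mean of the other 3 hTau.P301S mice (y axis) against gene length (x axis, log scale) for the 9 genes (points), with the median of all genes in 4 length classes (grey bars). Eva1b stands at 3.25, above the median of 1.21 for its length class, and Robo1, Slit3 and Slit2 stand at -2.09, -2.04 and -1.94, below theirs.

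Beyond the 9 genes, 5 lists of related genes were examined. No gene of any list was called by edgeR in any comparison, and DESeq2 results for these genes are not given here. Among 25 other genes of the Slit-Robo pathway, 1 was at an unadjusted p under 0.05 in hTau.P301S against WT, a share below the 7.14% of all genes. Without hTau.P301S replicate 1, 6 of the 25 were, and the share of all genes in that fit was not counted. The 1 gene at that level with every mouse was Sdc4, a membrane heparan sulfate proteoglycan of a family that helps Slit bind Robo. It was at 76.2, 64.5, 52.5 and 55.3 CPM in WT, 86.5, 56.9, 97.9 and 86.7 on NR in wild-type mice, 154, 131, 103 and 92.8 in untreated hTau.P301S mice and 76.2, 66.4, 69.97 and 61.8 in treated ones. The untreated hTau.P301S mice thus overlapped neither the WT nor the treated hTau.P301S mice. The log2 fold change of Sdc4 was 0.96 (SE 0.22, adjusted p = 0.531 in edgeR) in hTau.P301S and -0.82 (SE 0.20, adjusted p = 0.345 in edgeR) with NR in hTau.P301S. Its NR by genotype interaction was -1.21 (SE 0.27, unadjusted p = 0.000475, adjusted p = 0.484 in edgeR).

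With NR in hTau.P301S mice, 2 further genes of that list were higher at an unadjusted p under 0.05, which with Sdc4 made 3 of 25, close to the 12.9% of all genes. Without hTau.P301S replicate 1, 8 of the 25 were at that level, again with no share of all genes counted. Srgap1, a signalling protein that acts downstream of Robo, was at 5.38, 14.7, 16.1 and 16.5 CPM in hTau.P301S and at 32.9, 24.8, 27.2 and 33.9 CPM in hTau.P301S + NR. Its log2 difference was 1.17 (SE 0.33, adjusted p = 0.367 in edgeR), and 0.93 without hTau.P301S replicate 1. Sdc2, another syndecan, differed by 0.70 (SE 0.27). The median log2 fold change of the list was -0.07 in hTau.P301S against WT and 0.00 with NR, close to the medians of all genes. Without hTau.P301S replicate 1 these medians were 0.10 and -0.03.

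Ephrins are membrane-bound ligands that repel axons through Eph receptor kinases. None of the 7 ephrin genes tested was at an unadjusted p under 0.05 in hTau.P301S against WT. With NR in hTau.P301S mice 2 of the 7 were lower at that level, beside 12.9% of all genes in either direction. Without hTau.P301S replicate 1, 3 ephrin genes were at that level, with no share of all genes counted in that fit. Efna3 was at 79.7, 50.4, 67.0 and 47.6 CPM in hTau.P301S and at 29.4, 39.5, 32.6 and 33.3 CPM in hTau.P301S + NR, without overlap, a log2 difference of -0.87 (SE 0.21, adjusted p = 0.347 in edgeR). Efna1 was at 9.49, 7.63, 7.74 and 6.76 CPM and at 6.23, 5.32, 4.87 and 4.18 CPM in the same groups, a difference of -0.62 (SE 0.22). Efna3 was also lower in hTau.P301S + NR than in WT + NR, by a log2 difference of -0.42 (SE 0.17, adjusted p = 0.781 in edgeR).

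Of the Eph receptor genes, 1 of 13 tested was at an unadjusted p under 0.05 in hTau.P301S against WT, close to the 7.14% of all genes. Epha8 differed by -1.49 (SE 0.59), but its WT values were 3.12, 20.8, 4.69 and 6.55 CPM, the highest being WT replicate 2, and without the mice with high striatal markers this was -0.63. With NR in hTau.P301S mice, 1 of 14 was, a share below the 12.9% of all genes. This was Ephb6, with 87.8, 67.6, 102 and 80.3 CPM in hTau.P301S and 57.5, 58.9, 66.0 and 58.9 CPM in hTau.P301S + NR, a difference of -0.49 (SE 0.17).

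Classical netrins are secreted guidance cues whose receptors include DCC, neogenin and the UNC5 proteins. The list also holds Ntng1 and Ntng2, which are netrin-G genes and not classical ones. Of 11 genes of this list, 9 were lower and 2 higher in hTau.P301S than in WT (median -0.27), and 8 were higher and 3 lower with NR in hTau.P301S (median 0.54). Without hTau.P301S replicate 1, those medians were -0.05 and 0.20. At an unadjusted p under 0.05 stood 1 of the 11 in hTau.P301S against WT (7.14% of all genes), 3 with NR in hTau.P301S (12.9%) and 4 between the treated groups (6.09%). Without hTau.P301S replicate 1 the first 2 of these counts were 1 and 5, with no share of all genes counted in those fits. Over all genes, edgeR's calls also rose without this mouse, from 1 to 14 and from 1 to 33. The 1 and 5 can therefore not be set against the shares above. Ntn1 was at 13.8, 46.1, 12.2 and 16.2 CPM in WT and at 1.54, 10.3, 11.1 and 9.86 CPM in hTau.P301S, a log2 difference of -1.43 (SE 0.63), without overlap. The highest WT value and the lowest hTau.P301S value were again WT replicate 2 and hTau.P301S replicate 1. The log2 difference of Ntn1 was -1.10 without the latter and -0.79 (unadjusted p = 0.199) without the mice with high striatal markers.

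With NR, the receptor gene Unc5b went from 13.8, 24.5, 39.1 and 31.0 CPM in hTau.P301S to 57.2, 53.1, 43.6 and 56.8 CPM in hTau.P301S + NR (log2 difference 0.96, SE 0.29). Unc5d went from 8.12, 37.6, 35.7 and 36.1 CPM to 52.7, 56.4, 51.0 and 77.2 CPM (1.01, SE 0.42). For both genes, the 2 groups did not overlap. Ntn5 was lower, by a log2 difference of -1.04 (SE 0.38), with overlap. None of these 3 passed after adjustment. On NR, Unc5d was also higher in hTau.P301S than in WT (0.71, SE 0.20), as were Ntng1 (0.49, SE 0.17, and 0.29 without the mice with high striatal markers) and Neo1, the gene of neogenin (0.25, SE 0.09), whereas Ntn5 was lower (-1.26, SE 0.48).

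The last list held the heat shock protein 70 genes Hspa1a, Hspa1b and Hspa8 and the cochaperone gene Bag1, which the study ties to EVA1C. Hspa1a was at 7.51, 7.12, 8.54 and 10.7 CPM in WT, 13.4, 10.8, 24.3 and 8.75 on NR in wild-type mice, 15.3, 14.9, 7.63 and 6.87 in untreated hTau.P301S mice and 4.79, 6.83, 5.38 and 7.82 in treated ones. The 2 treated groups did not overlap, with a log2 difference of -1.21 (SE 0.32, adjusted p = 0.757 in edgeR). The highest of all 16 mice was WT + NR replicate 3, one of the mice with high striatal markers. The difference with NR was 0.77 (SE 0.32) in WT, and 0.30 (unadjusted p = 0.218) without those mice, against -0.86 (SE 0.33) in hTau.P301S. In each of these comparisons Hspa1a was the only gene of the 4 at an unadjusted p under 0.05, beside 0.79% and 12.9% of all genes. The NR by genotype interaction of Hspa1a was -1.60 (SE 0.47, unadjusted p = 0.00406, adjusted p = 0.558 in edgeR) and that of Hspa1b -0.99 (SE 0.42), or -0.45 without the mice with high striatal markers. In the treated mice Hspa1b was also lower in hTau.P301S than in WT, with a log2 difference of -0.59 (SE 0.26), or -0.26 without them. For Hspa1a, the interaction and the difference between the treated groups are given only with these mice, which include its highest value. Hspa1a and Hspa1b are near-identical copies, and how their shared reads were split is uncertain. Further interaction values at an unadjusted p under 0.05 were 1.08 for Srgap1 (SE 0.48), 0.94 for Unc5b (SE 0.36), -0.87 for Efna1 (SE 0.34) and -0.67 for Efna3 (SE 0.31). With Sdc4, this made 2 of 25 Slit-Robo genes, 2 of 8 ephrins, 1 of 11 netrin genes and 2 of these 4. No Eph receptor of 14 was at that level, beside 7.92% of all genes. Without hTau.P301S replicate 1 the 4 counts were 1, 1, 2 and 2. With the length trend removed they were 2, 0, 1 and 2. No share of all genes was counted in either of these fits.

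**Figure D4:**
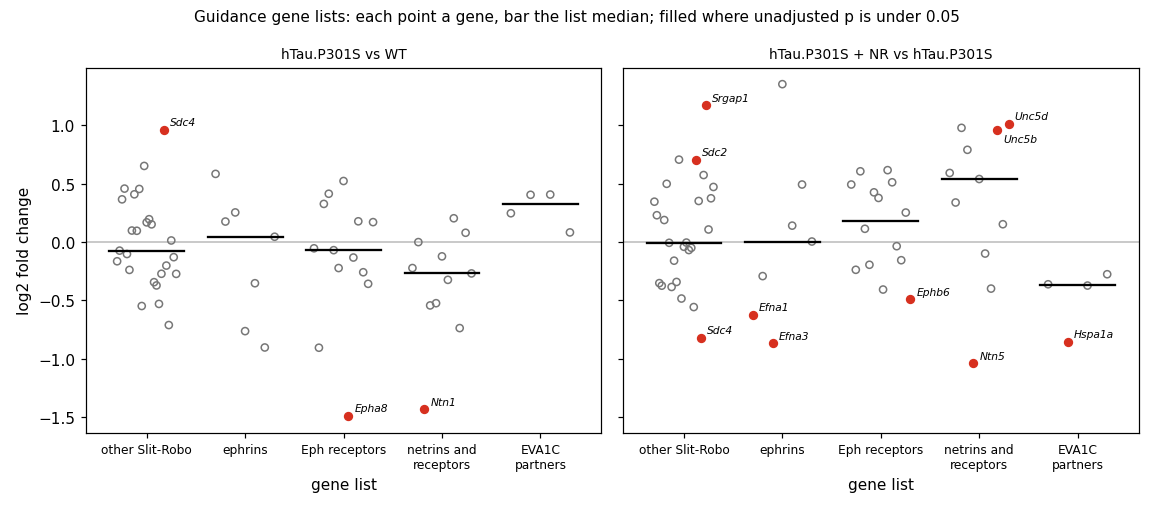
Log2 fold change (y axis) of each gene (points) in 5 lists (x axis) for hTau.P301S against WT (left) and NR in hTau.P301S mice (right), with the list median (bar) and genes at an unadjusted p under 0.05 filled and named. The medians of the netrin list stand at -0.27 and 0.54, and those of the Slit-Robo list near 0 in both panels.

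Over the 16 mice, the 5 genes with the highest Pearson r of log2 CPM with Eva1c were Cirbp (0.876), Acbd4 (0.874), 2510039O18Rik (0.865), Psen2 (0.86) and Tcta (0.859). These points share libraries and groups, and Eva1c carries few counts, so the values are a description over 16 mice. All 5 genes were highest in hTau.P301S replicate 1, and without that mouse 2 of the 5, Acbd4 and Tcta, stayed among the 5 most alike. Ranked by Spearman's correlation, 1 of the 5 did, Tcta. Bdh1, not among the 5, ranked first both by Spearman's correlation (0.924) and by Pearson r without that mouse (0.874). Cirbp, a cold-inducible RNA-binding protein gene, ranged from 62.5 to 89.0 CPM for WT, 56.6 to 81.6 for WT + NR, 86.1 to 217 for hTau.P301S and 49.6 to 70.4 for hTau.P301S + NR. Psen2, the gene of the gamma-secretase subunit presenilin 2, had r = 0.802 without hTau.P301S replicate 1 and ranked 79 by Spearman's correlation. Among the other 8 members, Eva1a had the highest r with Eva1c (0.609, and 0.441 without that mouse), and Robo1 the lowest (-0.67, and -0.435 without it).

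**Figure D5:**
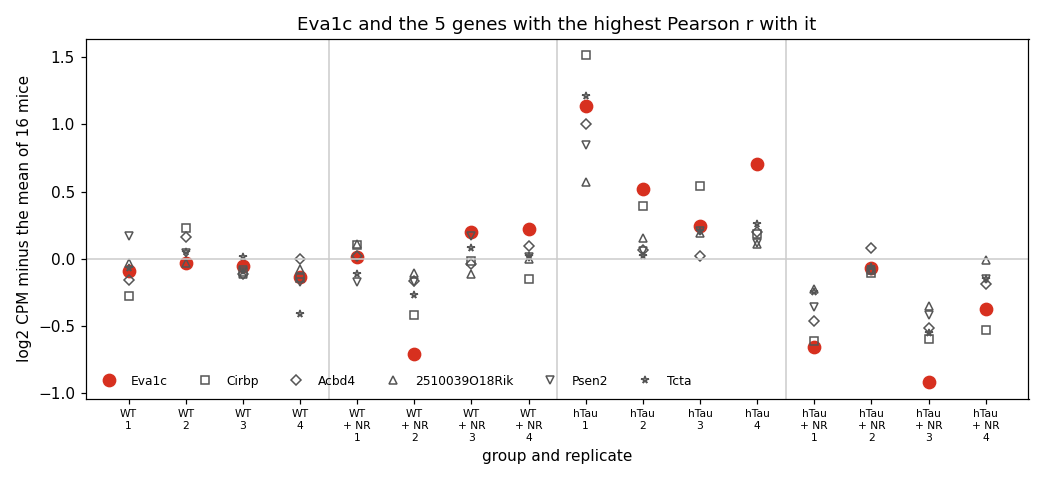
Log2 CPM minus the mean of 16 mice (y axis) for Eva1c (filled) and the 5 genes with the highest Pearson r with it (open symbols) in each mouse (x axis, hTau standing for hTau.P301S). All 6 genes are highest in hTau.P301S replicate 1, and Eva1c is lowest in hTau.P301S + NR replicate 3, at -0.92.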

How the data were processed

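Hippocampal RNA of 16 mice, 4 per group, was analysed. Per the labels and the paper, the authors trimmed reads with Trim Galore, aligned them with STAR to mm10 and counted them per gene with RSEM, and they deposited raw counts as whole numbers, with no normalization, beside a gene length whose definition is not given in the sources used here. RSEM assigns reads shared between copies by estimation. Groups and replicate numbers came from the sample titles.

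Counts were fitted with edgeR 4.0.16 in R 4.3.3 (filterByExpr, TMM, quasi-likelihood test) on the 8 mice of each comparison, or on all 16 for the interaction, and p-values were adjusted by Benjamini-Hochberg over all genes tested. A call needed an adjusted p under 0.05 and, between groups, an absolute log2 fold change above 0.5. DESeq2 1.42.0, other filters and normalizations, a replicate block and leaving out each mouse were alternatives. Fits were tested on simulated data. CPM used TMM library sizes, and log2 CPM a prior count of 2. Standard errors came from the fold change and its test statistic.

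Members and gene lists were chosen with earlier results of these data known. Named list genes were at most 3 per list and direction with an unadjusted p under 0.05, those with the largest change first. The 5 genes with the highest Pearson r with Eva1c were named as well, and Bdh1 for its rank by the other measures. The labels and the paper differ in the age of the mice. Whether littermates or cages were shared is not stated, so p-values measure the spread between these mice.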

Additional observations from a re-analysis of the deposited data

Results flagged for a closer look

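Of 36 combinations of gene and group examined, 3 held a mouse far from the other 3 of its group by Dixon's criterion, which flags about 1 in 20 groups by chance. Eva1b in hTau.P301S replicate 1 was at 15.2 CPM, with the nearest mouse at 1.91 CPM. Eva1a in WT replicate 3 was at 9.44 CPM, with the nearest at 12.1 CPM. Robo2 in WT replicate 2, one of the mice with high striatal markers, was at 41.3 CPM, with the nearest at 80.8 CPM.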

How the results depend on the processing

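For the 8 genes other than Eva1c, 611 of 674 log2 fold changes under alternatives kept their direction and side of the call, 60 changed direction and 3 became calls, all of them Eva1a in hTau.P301S against WT. The cause was not tested. DESeq2, DESeq2 over 4 groups and the latter without hTau.P301S replicate 1 each called 1 of the 8 genes there, and over all genes they called 115, 494 and 474 in place of 1. DESeq2 called 283 genes in place of 1 for NR in hTau.P301S mice (287 over 4 groups), 58 in place of 9 for hTau.P301S + NR against WT + NR (21 over 4 groups), 18 in place of 0 for the interaction, and, over 4 groups, 2 in place of 0 for NR in WT. Fitting all 4 groups in edgeR gave 36 calls for hTau.P301S against WT and 2 for NR in hTau.P301S. Without the low-count filter there were 5 calls for hTau.P301S against WT and 15 for the treated groups. Without hTau.P301S replicate 1, edgeR called 14 and 33 genes in the first 2 comparisons in place of 1 each. Leaving out single mice gave 8 to 31 calls for hTau.P301S + NR against WT + NR. Eva1c kept its direction under every alternative except for NR in WT, where it ranged from -0.03 to 0.24. As Eva1c was picked on these same mice, this is a description only.

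Replicate numbers were not taken as pairs, since same-numbered mice are different animals and the correlations of their deviations ranged from -0.54 to 0.29. With the replicate number as a block, calls over all genes were 3 for hTau.P301S against WT, 0 for NR in hTau.P301S and 4 for the treated groups, none of the 8 genes was called, Robo3 in hTau.P301S against WT turned to 0.019 and Slit3 with NR in hTau.P301S to 0.052.

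With the length trend removed, hTau.P301S against WT turned to 0.034 for Slit2, 0.012 for Slit3, 0.16 for Robo1 and 0.026 for Robo3, and NR in hTau.P301S to -0.16 for Slit2, -0.068 for Robo1 and -0.33 for Robo2, while the median of all genes moved to 0.10 and -0.11. Without the low-count filter the median of all genes in hTau.P301S against WT was -0.13. In DESeq2's fit over 4 groups without hTau.P301S replicate 1, hTau.P301S against WT turned to -0.76 for Eva1b, 0.22 for Slit3 and 0.25 for Robo1, and NR in hTau.P301S to 0.24 for Robo3. Without the 3 mice high in striatal markers, hTau.P301S against WT turned to -0.058 for Robo2, NR in hTau.P301S to 0.05 for Slit1, 0.07 for Slit3 and 0.023 for Robo3, NR in WT to 0.20 for Eva1b and 0.002 for Slit3, and hTau.P301S + NR against WT + NR to 0.08 for Slit2. These 3 alternatives were chosen after seeing the data.

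Leaving out each mouse in turn gave ranges that crossed 0 as follows. For hTau.P301S against WT they were -0.76 to 1.26 for Eva1b, -0.60 to 0.10 for Slit2, -0.31 to 0.21 for Slit3, -0.26 to 0.25 for Robo1, -0.058 to 0.35 for Robo2 and -0.81 to 0.35 for Robo3. For NR in hTau.P301S they were -0.39 to 0.05 for Slit1, -0.35 to 0.11 for Slit3 and -0.47 to 0.25 for Robo3. For NR in WT they were -0.07 to 0.16 for Eva1a, -0.36 to 0.10 for Eva1b, -0.037 to 0.60 for Slit2, -0.27 to 0.22 for Slit3, -0.083 to 0.29 for Robo2 and -0.92 to 0.59 for Robo3. For hTau.P301S + NR against WT + NR they were -0.43 to 0.005 for Slit1, -0.18 to 0.15 for Slit2, -0.35 to 0.093 for Slit3 and -0.78 to 0.34 for Robo3. For the interaction, Eva1b ranged from -1.98 to 0.06. Ordered by median level or without hTau.P301S replicate 1, 7 of the 9 genes kept their rank.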
